A study of Mus musculus with 8 samples.

Results

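The genes of the leukocyte integrin chains were measured in the retinal pigment epithelium (RPE)/choroid of old and young mice. The 10 genes chosen were Itgal, Itgam, Itgax and Itgad, whose products pair with the chain encoded by Itgb2, then Itga4, Itgae and Itgb7, and, for contrast, Itgb1 and Itgb3. All probe sets annotated to one of these genes alone were taken, which gave 21 of 45037 probe sets and 9 of 18193 genes. Itgad had no probe set of its own in the annotation and was not analysed here. The samples were male C57BL/6 mice without a transgene or treatment in the labels, 4 samples from old animals aged 26 months and 4 from young animals aged 4 months, each pooled from 4 RPE/choroids of 2 animals and measured on 1 Affymetrix mouse expression array. The comparison asks which chains differ in level with age in a tissue that leukocytes reach from the choroidal circulation.

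An integrin is a pair of an alpha and a beta chain that spans the cell membrane and holds a cell to its neighbours or to the matrix. Leukocytes keep their integrins in a bent, inactive shape until a chemokine or antigen receptor signals from inside the cell, and the opened pair then grips ligands on the endothelium, which stops a rolling cell and lets it cross the vessel wall. The beta chain of Itgb2 is made almost only by leukocytes, that of Itgb7 by lymphocytes and some myeloid cells, and that of Itgb1 by nearly every cell type. In the eye, the choroid carries the vessels from which leukocytes can reach Bruch's membrane and the RPE.

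Itgax, Itgam, Itgb2, Itgal, Itgb3 and Itga4 were higher in old RPE/choroid by at least 1 probe set, whereas Itgae and Itgb7 did not pass the test. The 3 bright probe sets of Itgb1 did not pass either, with log2 changes of 0.22 to 0.27, and 1 dim probe set of Itgb1 was lower. Of the 21 probe sets, 8 from 6 genes were higher and 1 was lower in old animals at an adjusted p under 0.05 (limma on log2 values, Benjamini-Hochberg over all 45037 probe sets). This adjustment applies to every adjusted p of a single gene or probe set below, except in the fits over gene means and with the low-value filter. Of all probe sets tested, 9.22% were higher and 8.75% lower by the same rule. By the stricter rule of the study's methods, more than 2-fold with an adjusted p below 0.01, 5 member probe sets of 5 genes were higher, against 0.764% of all probe sets, and 0 were lower. The 2 ages did not overlap, with old arrays above, in 8 member probe sets and in 12.3% of all probe sets. The median log2 change was 0.26 over the 21 probe sets and -0.02 over all 45037. With each gene given by its brightest probe set (highest mean log2 value), it was 1.31 over the 9 genes, which is the value of Itgb3, and -0.02 over all 18193 genes. With all probe sets of each gene averaged, the median was 0.71 over the 9 genes and -0.02 over all genes, 6 genes were higher, and 3 rather than 5 passed the stricter rule (Itgam, Itgax and Itgb2).

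**Figure D1:**
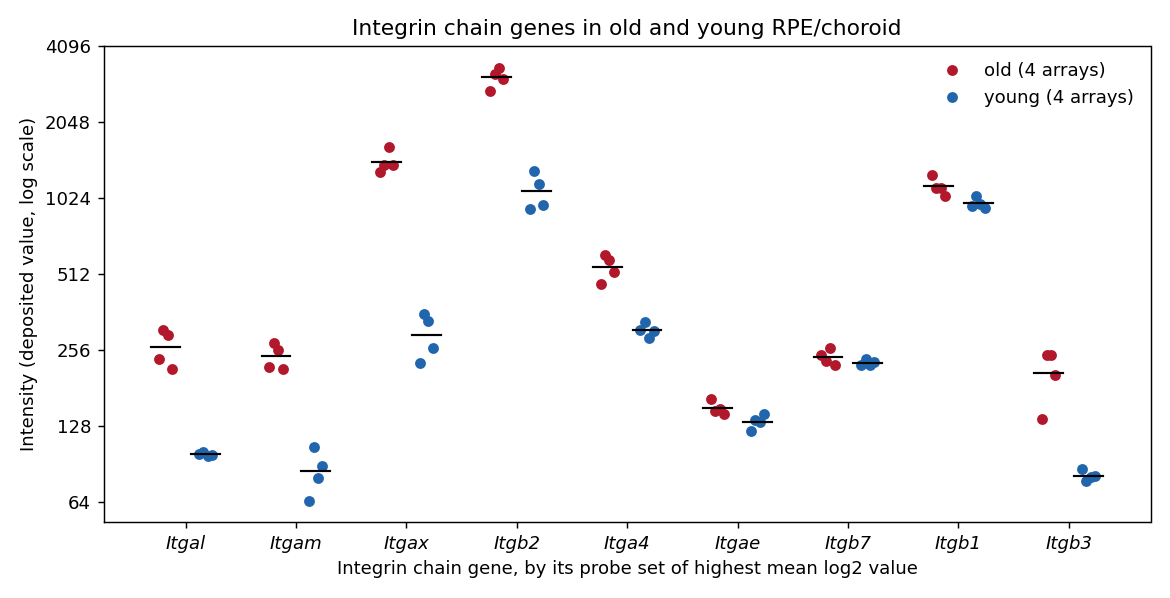
Deposited intensity (vertical axis, log scale) of 9 integrin chain genes (horizontal axis), each by its probe set of highest mean log2 value, in 4 old (red) and 4 young (blue) arrays, with a line at each mean. Old and young arrays are apart for Itgal, Itgam, Itgax, Itgb2, Itga4 and Itgb3 and overlap for Itgae, Itgb7 and Itgb1, whose 4 old arrays lie at 1047 to 1262 and whose young arrays lie at 936 to 1047.

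The arrays were alike in their overall signal, with medians of 128.5 to 135.4 and correlations of log2 values within an age of 0.9915 to 0.9953. Of all genes, each given by its brightest probe set, 11.8% were higher and 9.56% lower in old samples. General leukocyte markers were higher in old samples for 8 of 10 genes and lower for 0, led by the surface protein genes Cd52 and Cd53 (log2 changes 1.35 and 1.30), and their summed intensity was 14179 to 16985 in old and 7497 to 8456 in young arrays. Itgb2 and most of the other chains are leukocyte genes, and in a bulk sample more leukocytes and more RNA per leukocyte cannot be told apart. RPE markers, 7 of 12 of them lower in old samples, summed to 105573 to 115294 in old and 122046 to 123498 in young arrays, and none of the 12 was under 64 in every array. Neutrophil markers, 2 of 10 higher and 1 lower, stood out in old replicate 2, at a summed intensity of 18510.7 where the lowest old array had 1903. Of 11 neural retina markers 0 were higher and 1 was lower, with a median log2 change of -0.55. The lower one, Rlbp1, a retinoid-binding protein of RPE and Mueller glia, is also among the 7 lower RPE markers. The summed intensity of the neural retina list varied from 22599.9 to 35634.5 among the old and from 28114.0 to 38645.2 among the young arrays. Bright genes such as Rlbp1 weigh most in this sum. The mean of the log2 values of the list, each gene less its mean over the arrays, was -0.73 to 0.50 in old and -0.18 to 0.52 in young arrays. Without old replicates 2 and 4, 8 member probe sets were higher, 0 were lower and 4 rather than 5 passed the stricter rule. Whether neutrophil or neural retina RNA bears on the levels of the integrin chains was not tested.

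Itgb2 encodes the chain shared by the leukocyte-specific pairs (CD18). Its single probe set read 2715, 3181, 3352 and 3041 in old replicates 1 to 4, and 926, 1305, 1160 and 963 in young replicates 1 to 4. The old arrays lay well above the young arrays, with a mean of 3072 ± 270 in old and 1089 ± 177 in young samples (SD, n = 4 each). The log2 change was 1.51 ± 0.12 (SE, adjusted p = 7.2e-05), a 2.84-fold rise.

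Itgax, the alpha chain of dendritic cells and of tissue macrophage subsets (CD11c), had the largest change of the 9 genes. Its probe set read 1302, 1378, 1630 and 1389 in old replicates 1 to 4, and 228, 354, 334 and 260 in young replicates 1 to 4. The lowest old array, 1302, lay far above the highest young array, 354. The log2 change was 2.29 ± 0.14 (SE, adjusted p = 3.3e-05), with a 95% interval of 1.98 to 2.61. Itgam encodes the alpha chain of monocytes, macrophages and neutrophils (CD11b), which with the Itgb2 chain forms the receptor for the complement fragment iC3b. Its probe set read 220, 273, 257 and 216 in old replicates 1 to 4, and 64.9, 105.5, 79.7 and 89.4 in young replicates 1 to 4. The groups did not overlap, and young replicate 1, which was also the lowest array for Itgax and Itgb2, was the lowest of all. Itgam was 2.88-fold higher (log2 change 1.52 ± 0.14, SE, adjusted p = 0.000201).

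Itgam, Itgax and Itgad follow each other as neighbours on mouse chromosome 7 in the RefSeq genes of GRCm38.p6. RefSeq start sites gave a promoter window for 4 of the 10 genes (up to 250 bases before the start, ending before the first base of the gene). The windows of Itgam and Itgax, neighbours that both rose, and of Itgb1, which did not pass by its bright probe sets, are shown to set them side by side. Capitals mark the letters GAGGAA or, on the other strand, TTCCTC, which lie within the sequence bound by PU.1.

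Itgam (chr7:128062390-128062639, + strand): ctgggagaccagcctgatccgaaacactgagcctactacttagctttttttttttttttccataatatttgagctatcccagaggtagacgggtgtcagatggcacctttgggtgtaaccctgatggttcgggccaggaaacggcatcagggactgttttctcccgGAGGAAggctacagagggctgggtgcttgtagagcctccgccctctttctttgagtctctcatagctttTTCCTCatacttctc
Itgax (chr7:128129300-128129525, + strand): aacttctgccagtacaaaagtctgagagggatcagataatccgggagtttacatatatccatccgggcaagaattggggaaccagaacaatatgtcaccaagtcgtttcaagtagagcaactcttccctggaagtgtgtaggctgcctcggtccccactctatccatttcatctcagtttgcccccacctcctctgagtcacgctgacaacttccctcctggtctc
Itgb1 (chr8:128685404-128685653, + strand): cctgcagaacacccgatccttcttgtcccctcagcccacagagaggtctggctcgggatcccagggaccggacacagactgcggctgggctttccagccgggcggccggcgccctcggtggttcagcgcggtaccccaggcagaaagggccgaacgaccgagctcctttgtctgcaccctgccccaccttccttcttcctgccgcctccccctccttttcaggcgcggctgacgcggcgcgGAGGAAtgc

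The letters occurred at 2 places in the window of Itgam, which do not overlap, at 0 in that of Itgax, at 1 in that of Itgb1 and at 0 in that of Itga4, and in 23.2% of 32851 windows of 250 bases before RefSeq starts. A match describes the letters alone, and the presence or absence of a match says nothing here of the binding of PU.1. Spi1 itself rose by 1.15 on the log2 scale (adjusted p = 0.000399).

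Itgal encodes the alpha chain carried by T cells and most other leukocytes (CD11a), which with the Itgb2 chain binds the Icam proteins. It had 2 probe sets that differed in their result. The probe set 1435560_at read 236, 307, 293 and 216 in old replicates 1 to 4, and 99.4, 101.2, 97.2 and 98.4 in young replicates 1 to 4. The young arrays were nearly equal, and each old array was above them all, with a log2 change of 1.39 ± 0.11 (SE, adjusted p = 7.5e-05). The probe set 1425367_at read 126, 149, 133 and 126 in old replicates 1 to 4, and 134.7, 121.6, 132.2 and 119.5 in young replicates 1 to 4. There the groups overlapped, and the log2 change was 0.07 (95% interval -0.10 to 0.23, adjusted p = 0.552). With both probe sets averaged, Itgal had a log2 change of 0.73 (adjusted p = 0.000417 in a limma fit over gene means).

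**Figure D2:**
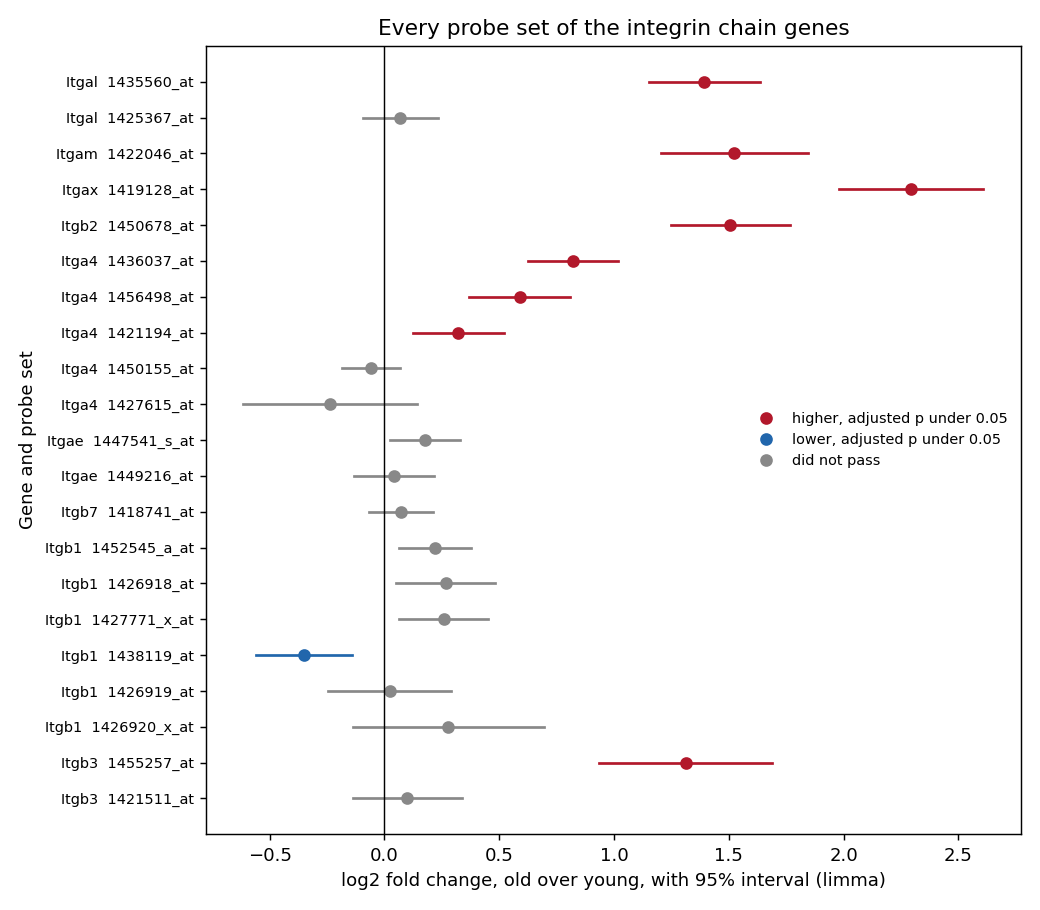
Log2 change, old over young (horizontal axis), with its 95% interval from limma for each of the 21 probe sets (vertical axis). Red marks the 8 higher probe sets, blue the 1 lower and grey those that did not pass, and Itgal, Itga4, Itgb1 and Itgb3 each hold probe sets of more than 1 outcome.

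Itgb3 encodes a beta chain that pairs with the alpha chain of Itga2b on platelets and with that of Itgav on osteoclasts, endothelium and other cells. Its probe set 1455257_at read 136.5, 244.7, 244.0 and 203.8 in old replicates 1 to 4, and 86.3, 77.4, 80.7 and 81.1 in young replicates 1 to 4. Old replicate 1 was the lowest of the old arrays, though still above every young array. The log2 change was 1.31 ± 0.17 (SE, adjusted p = 0.00107). Without old replicates 2 and 4 it was 1.17, with an adjusted p of 0.0156, and no longer passed the stricter rule. The other probe set, 1421511_at, read 85.1, 95.5, 91.1 and 75.6 in old replicates 1 to 4, and 95.6, 81.2, 78.9 and 69.3 in young replicates 1 to 4, and the groups overlapped (log2 change 0.10, 95% interval -0.14 to 0.34, adjusted p = 0.549). With both averaged, Itgb3 had a log2 change of 0.71 (adjusted p = 0.00306 in a limma fit over gene means). Both alpha partners had other results, since Itga2b had a log2 change of 0.15 (adjusted p = 0.244) and Itgav, the chain of vitronectin receptors, fell by 0.20 (adjusted p = 0.0414).

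Platelet and osteoclast markers moved beside Itgb3 in part. Of 8 platelet markers 4 were higher and 0 lower, led by the receptor gene Clec1b and the chemokine gene Ppbp (log2 changes 1.22 and 1.06), with a summed intensity of 1492 to 3101 in old and 1316 to 1448 in young arrays, and the list was highest in old replicate 2 and lowest among the old arrays in old replicate 1. Of 10 osteoclast markers 3 were higher (Acp5, Ctsk and Atp6v0d2), 0 lower and 7 did not pass, with a median log2 change of 0.12. Their sum was 6764 to 8795 in old and 2823 to 3282 in young arrays, and the 3 higher genes held most of it. Calcr and Ocstamp were under 64 in every array. Of all genes, 11.8% were higher and 9.56% lower by the same rule. The part of these cell types in the rise of Itgb3 was not tested.

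Itga4 encodes the alpha chain that pairs with that of Itgb1 to bind Vcam1 and fibronectin, or with that of Itgb7 to bind Madcam1 on gut endothelium. It had 5 probe sets, of which 3 were higher and 2 did not pass. The brightest, 1436037_at, read 469, 606, 583 and 521 in old replicates 1 to 4, and 307, 330, 286 and 304 in young replicates 1 to 4. The groups did not overlap, and the log2 change was 0.82 ± 0.09 (SE, adjusted p = 0.000405). The probe set 1456498_at, at 92.0 to 117.7 in old and 60.6 to 74.0 in young arrays, had a log2 change of 0.59 (adjusted p = 0.00428). The dimmer 1421194_at, at 58.1 to 75.4 in old and 46.7 to 54.2 in young arrays, had one of 0.32 (adjusted p = 0.0331), and its adjusted p was 0.0523 to 0.0823 when any array other than old replicate 2 was left out. The 2 that did not pass, 1450155_at and 1427615_at, had means of 43.8 and 12.1 in old and 45.6 and 14.5 in young arrays. Their log2 changes were -0.06 and -0.24 (95% intervals -0.19 to 0.07 and -0.61 to 0.14), so that the changes of the 5 probe sets ran in the order of their brightness.

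The chains of Itgae (CD103) and Itgb7 together form the integrin of lymphocytes within epithelia, which binds the cadherin encoded by Cdh1. The single probe set of Itgb7 read 246, 233, 261 and 223 in old replicates 1 to 4, and 222, 237, 224 and 231 in young replicates 1 to 4. The ranges overlapped, with a log2 change of 0.07 (95% interval -0.07 to 0.21, adjusted p = 0.445). The brighter probe set of Itgae, 1447541_s_at, read 164.0, 146.7, 150.3 and 142.8 in old replicates 1 to 4, and 122.4, 135.6, 132.8 and 142.8 in young replicates 1 to 4. The lowest old array and the highest young array were level, and the log2 change was 0.18 (95% interval 0.03 to 0.33, adjusted p = 0.0984). The dimmer 1449216_at, at 83.5 to 92.4 in old and 73.0 to 90.0 in young arrays, had one of 0.04 (adjusted p = 0.745).

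Itgb1, the beta chain of most matrix receptors, had 6 probe sets. The 3 bright ones were alike. The probe set 1452545_a_at read 1262, 1122, 1121 and 1047 in old replicates 1 to 4, and 952, 1047, 965 and 936 in young replicates 1 to 4. Old replicate 4 and young replicate 2 were almost level, and the log2 change was 0.22 (95% interval 0.06 to 0.38, adjusted p = 0.0566). The probe sets 1426918_at and 1427771_x_at had log2 changes of 0.27 and 0.26 (adjusted p = 0.0835 and 0.0683). Without young replicate 2, the highest young array in these probe sets, all 3 passed (adjusted p = 0.0448, 0.0172 and 0.0360, in the order given), and without old replicate 4 the first alone did (adjusted p = 0.0469). The other 3 had means under 64. One of them, 1438119_at, read 30.8, 29.5, 30.6 and 34.4 in old replicates 1 to 4, and 41.3, 33.3, 41.4 and 44.4 in young replicates 1 to 4. It was lower in old samples with an overlap of 1 array on each side (log2 change -0.35, adjusted p = 0.0310), which was 0.0584 to 0.0804 without young replicates 1, 3 or 4 or old replicates 1, 2 or 3. Its change had the opposite sign to those of the bright probe sets, and 1426919_at and 1426920_x_at did not pass (log2 changes 0.02 and 0.28, adjusted p = 0.918 and 0.327).

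The 8 probe sets that were higher shared an order among the arrays in part. Old replicate 2 was the highest of the old arrays in 5 of them and old replicate 3 in the other 3, whereas old replicate 1 was the lowest in 5. Among the young arrays, replicate 2 was the highest in 6. The general leukocyte markers were likewise highest in old replicate 2 and lowest among the old arrays in old replicate 1, with mean centred log2 values of 0.57 in old replicate 2, 0.53 in old replicate 3, 0.33 in old replicate 4 and 0.31 in old replicate 1, and -0.49 to -0.36 in the young arrays. The macrophage, platelet and neutrophil markers had the same highest and lowest old arrays, whereas T cell and NK cell markers were highest in old replicate 3. The neutrophil markers spread more widely, at 1.63 in old replicate 2 and between -0.31 and 0.24 in old replicates 1, 3 and 4. In the young arrays they lay between -0.60 and -0.33. Itgam, a chain that neutrophils carry, read 273 in old replicate 2, beside 216 to 257 in old replicates 1, 3 and 4.

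**Figure D3:**
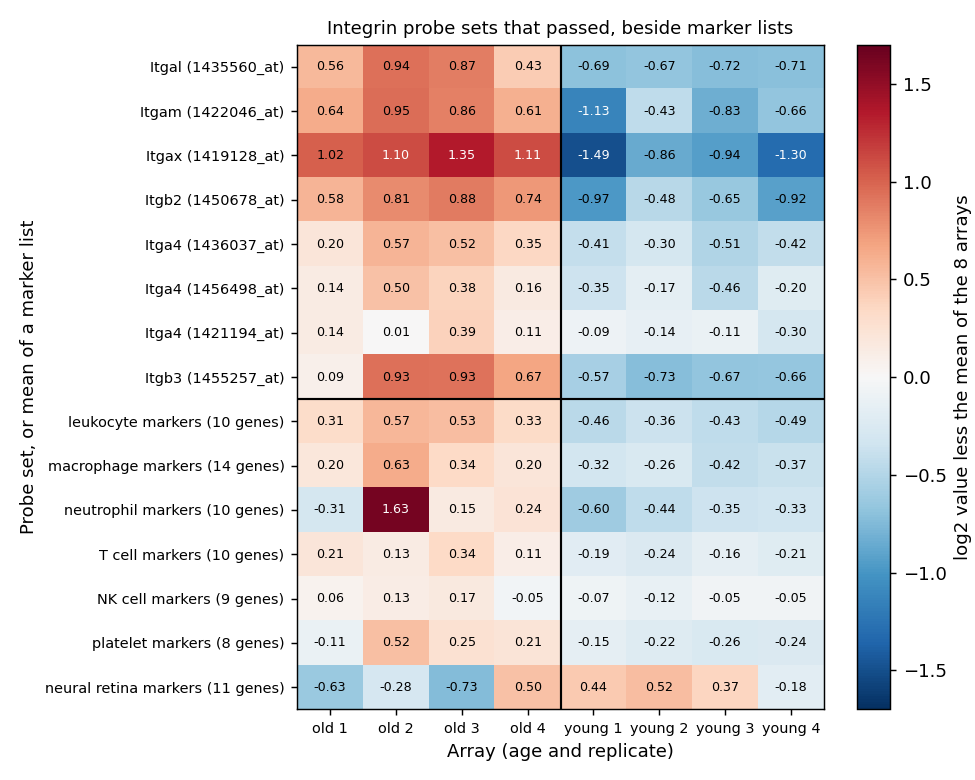
Log2 value less the mean of the 8 arrays for the 8 integrin probe sets that were higher (upper rows) and the mean of the genes of 7 marker lists (lower rows), by array (horizontal axis, old then young). Red is above and blue below the mean. The integrin rows were picked because they were higher in old arrays, so they are above 0 in every old and below 0 in every young array. The other member probe sets are not shown. The neutrophil markers reach 1.63 in old replicate 2 and the neural retina markers 0.50 in old replicate 4.

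Of the other markers, macrophage genes were higher in 9 of 14 cases and lower in 0, with a sum of 35871 to 38460 in old and 23552 to 26636 in young arrays. Cd68, a lysosomal protein, and Trem2, a receptor for lipids on myeloid cells, changed most, by 1.47 and 1.44 on the log2 scale. T cell genes were higher in 5 of 10 and lower in 0, led by Cd3d and Cd3g of the T cell receptor complex (1.12 and 1.10). Cd3e of the same complex did not pass (-0.13, adjusted p = 0.322). The T cell list had a sum of 1719 to 1924 in old and 1459 to 1700 in young arrays. Of 9 dendritic cell markers other than Itgax, 1 was higher and 1 lower, with a sum of 2919 to 3197 in old and 3072 to 3290 in young arrays. NK cell genes were higher in 2 of 9 and lower in 0, with Ncr1 under 64 in every array, and B cell genes higher in 1 and lower in 1 of 9, with Ms4a1 and Cr2 under 64 in every array. Mast cell genes, led by the protease genes Cpa3 and Cma1, were higher in 5 of 9 and lower in 1, and fibroblast genes higher in 2 of 10 and lower in 1. None of the 10 neutrophil or 14 macrophage markers was under 64 in every array. By the same rule 11.8% of all genes were higher and 9.56% lower, and the dendritic cell and B cell counts lay near these shares. The part of each cell type in the levels of the integrin chains was not tested.

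Partners were next compared within each array, as the log2 value of 1 chain less that of the other, which asks whether their changes were unequal and not which was more abundant. Of 9 pairs tested with an exact two-sided permutation test over the 70 assignments of the arrays, 5 had groups that did not overlap and so reached the smallest p that 4 against 4 arrays allow, 0.0286, with an adjusted p of 0.0514 (Benjamini-Hochberg over the 9 pairs), and 0 passed 0.05 after adjustment. Itgax less Itgb2 was -1.06, -1.21, -1.04 and -1.13 in old replicates 1 to 4, and -2.02, -1.88, -1.80 and -1.89 in young replicates 1 to 4. The old arrays were all above the young arrays, and the change of Itgax exceeded that of Itgb2 by 0.79. Itgam less Itgb2 had a mean of -3.67 ± 0.12 in old and -3.69 ± 0.20 in young arrays (SD, n = 4 each), a difference of 0.02 (exact permutation p = 0.857). For Itgal less Itgb2 the difference was -0.11 (exact permutation p = 0.486), and for Itgb2 less Itgb3 it was 0.19 (exact permutation p = 0.371). A p that misses the threshold does not show equal changes.

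Beta chains were compared in the same way. Itgb2 less Itgb1 was 1.43 ± 0.22 in old and 0.15 ± 0.17 in young arrays (SD, n = 4 each), with ranges of 1.10 to 1.58 in old and -0.04 to 0.32 in young arrays. The groups lay apart, with a difference of 1.29, and Itgb2 less Itgb7 differed by 1.43 (exact permutation p = 0.0286 for both). For Itga4 and its partners the difference was 0.60 against Itgb1 and 0.75 against Itgb7 (exact permutation p = 0.0286 for both), and Itgae less Itgb7 differed by 0.11 (exact permutation p = 0.114). These Itga4 values rest on the brightest probe set of each chain. With all probe sets of both chains of a pair averaged, they were 0.17 and 0.21. With all probe sets of each gene averaged, 6 of the 9 pairs had the smallest p, and their adjusted p was 0.0429. Itgal less Itgb2 (-0.78) and Itgb2 less Itgb3 (0.80) were then among them, and Itga4 less Itgb1 was not (adjusted p = 0.184, exact permutation test). The averages of Itgal and Itgb3 include 1425367_at and 1421511_at, whose log2 changes were 0.07 and 0.10. By the brightest probe sets, Itgal less Itgb2 differed by -0.11 and Itgb2 less Itgb3 by 0.19. Whether Itgal or Itgb3 rose less than Itgb2 thus depends on the probe sets taken. Itgax less Itgb2 differed by 0.79 in both settings. Its adjusted p fell from 0.0514 to 0.0429 (exact permutation test) because 6 rather than 5 pairs had the smallest p.

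**Figure D4:**
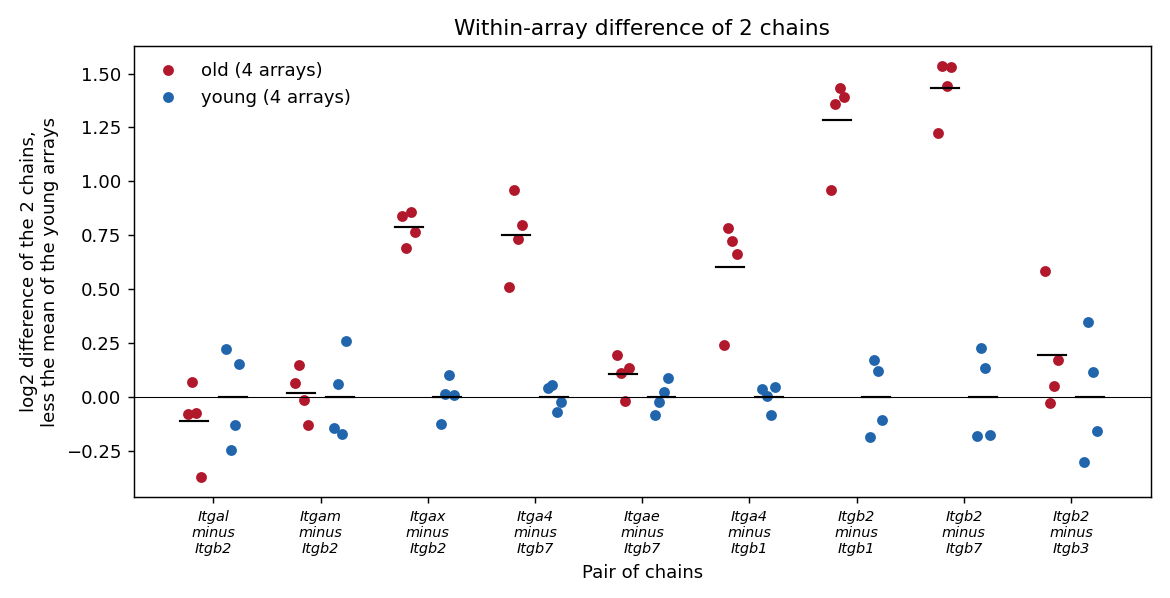
Within-array log2 difference of 2 chains, less the mean of the young arrays (vertical axis), for 9 pairs (horizontal axis) in 4 old (red) and 4 young (blue) arrays, with a line at each mean. Old and young arrays are apart for 5 pairs and overlap for Itgal, Itgam and Itgb3 against Itgb2 and for Itgae against Itgb7.

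Further lists hold the remaining integrin chains, the ligands and the proteins inside the cell. Over all of them 30 of 77 genes were higher and 7 lower. Without old replicates 2 and 4 the counts were 19 and 1, in a fit with fewer arrays whose share over all genes is not given here. Of 15 other integrin chains measured, 2 were higher and 2 lower, with a median log2 change of -0.01, where 11.8% of all genes were higher and 9.56% lower with each gene given by its brightest probe set. Itga5, the alpha chain of the fibronectin receptor, rose by 0.35 on the log2 scale by its brightest probe set (adjusted p = 0.00981). Its dimmer probe sets did not pass, with log2 changes of -0.02 to 0.04. Itgb5, which pairs with Itgav in the phagocytosis of outer segments by the RPE, rose by 0.29 (adjusted p = 0.0149). Itga3, the alpha chain of a laminin receptor, fell by 0.27 (adjusted p = 0.0319), beside Itgav above.

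The ligands of these chains included matrix proteins and receptors of the endothelium. Of 19 measured, 6 were higher and 2 lower, with a median of 0.12. Tnc, a matrix glycoprotein, averaged 686 ± 70 in old and 121 ± 17 in young samples (SD, n = 4 each), a log2 change of 2.51 (adjusted p = 1.6e-05). Fn1, fibronectin, which the pair of Itga4 and Itgb1 binds, rose by 1.92, and Mfge8, a bridge from dying cells to Itgav integrins, by 1.25. Icam1, the endothelial ligand of the Itgb2 integrins, averaged 1397 ± 54 in old and 635 ± 63 in young samples (log2 change 1.14, adjusted p = 3.7e-05). Vcam1, the endothelial ligand of the pair of Itga4 and Itgb1, averaged 1455 ± 118 in old and 726 ± 48 in young samples (adjusted p = 6.8e-05). Icam2, a ligand of resting endothelium, fell by 0.64 on the log2 scale (adjusted p = 0.00791). Madcam1, the ligand of the pair of Itga4 and Itgb7, had a log2 change of -0.09 (adjusted p = 0.451), and Cdh1, the ligand of the pair of Itgae and Itgb7, one of -0.34 (adjusted p = 0.0630). Vcam1, Madcam1, Icam2 and Cdh1 are named here as the partners of the chains and were picked after their values were seen. Endothelial markers were lower in 7 of 10 cases and higher in 0, with a sum of 10862 to 12836 in old and 13558 to 16780 in young arrays.

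Inside the cell, proteins on the integrin tails open the pair and pass on its signal. Of 20 genes that activate integrins from inside the cell, 10 were higher and 2 lower, with a median of 0.21. Fermt3, the kindlin of blood cells, averaged 908 ± 148 in old and 347 ± 24 in young samples (SD, n = 4 each), a log2 change of 1.38 (adjusted p = 0.000107). Its other probe sets changed by 1.29 (1433963_a_at), 0.38 (1433964_s_at) and -0.04 (1443641_at), and the last did not pass. Rassf5, which links the small GTPase Rap1 to the Itgal chain, rose by 1.09, Fyb, an adaptor of T cells and myeloid cells, by 0.89, and Cytip, which limits the adhesion driven by Itgb2, by 1.11 (adjusted p = 0.0346), with a spread of 217 to 685 in old against 142 to 163 in young arrays. Of 23 genes that signal from ligand-bound integrins, 12 were higher and 1 lower, with a median of 0.28. The lower one was the kinase gene Ptk2b, whose 2 probe sets had opposite calls, with a log2 change of -0.25 by the brighter 1442927_at (adjusted p = 0.0479) and of 1.08 by 1434653_at (adjusted p = 0.000107). Vav1, an exchange factor for Rac in blood cells and also one of the general leukocyte markers, did not pass by its brighter probe set (-0.14, adjusted p = 0.385) and was higher by 1422932_a_at (1.19, adjusted p = 3.3e-05). Of the 77 genes in the pathway lists, 5 were not higher by the brightest probe set but higher by another, and 2 of these, Ptk2b and the adaptor gene Skap1, were lower by the brightest. The reverse also occurred, as Tln1 was higher by its brightest probe set (0.30) and lower by 1436042_at (-0.27, adjusted p = 0.0246). Pik3r5, a subunit of a phosphoinositide kinase of leukocytes, rose by 1.37, Fcer1g, a signalling chain with an ITAM, by 1.25, the tyrosine kinase gene Syk by 1.23 and Rac2, a GTPase of blood cells, by 1.19 (adjusted p at most 0.000203).

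**Figure D5:**
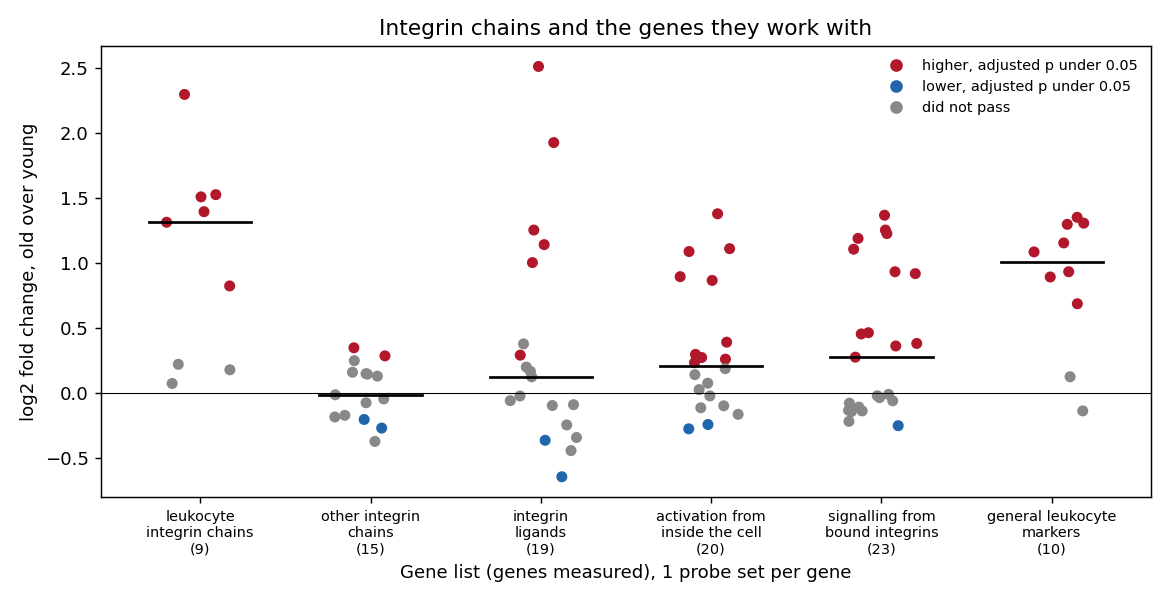
Log2 change, old over young (vertical axis), of single genes by their probe set of highest mean log2 value, in 6 lists (horizontal axis), with the list median as a line. Red is higher and blue lower at an adjusted p under 0.05, and grey did not pass. The medians are 1.31 for the leukocyte integrin chains, 1.01 for the general leukocyte markers and -0.01 for the other integrin chains, and with all probe sets of each gene averaged they are 0.71, 0.76 and -0.01.

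The genes whose centred log2 values over the 8 arrays were nearest to those of Itgb2, by Euclidean distance among 18192 other genes, were Cd68 at a distance of 0.20, Cybb, the catalytic subunit of the phagocyte oxidase, at 0.22, Glipr1 at 0.23, Tfec, a transcription factor of macrophages, at 0.24 and Igsf6 at 0.28. Their log2 changes ran from 1.44 to 1.62. The distance spans both ages, so genes near a chain have a change close to its own by the way they were picked. Nearest to Itgax were Csf2rb2, a receptor chain for interleukin-3, at 0.40, Mamdc2 at 0.42, the serotonin receptor gene Htr2b at 0.47, the chemokine gene Cxcl5 at 0.53 and Il7r at 0.56. Nearest to Itgb3 were Pstpip1, a cytoskeletal adaptor of blood cells, at 0.21, Sla at 0.36, the acute phase gene Saa3 at 0.37, Slfn2 at 0.37 and Spi1, the transcription factor PU.1 of myeloid and B cells, at 0.40.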

How the data were processed

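RNA of 8 RPE/choroid samples was measured on Affymetrix mouse expression arrays, 1 for each sample. The deposited intensity values are linear and had been normalized between arrays by the authors. The study's methods describe RMA, Dchip with invariant set normalization and BRB-ArrayTools, and which of them made these values is not given in the sources used here. Its removal of probe sets called absent in all samples was not applied. Values under 1 were set to 1 and log2 was taken. Of 45101 probe sets, 64 controls were left out, and lmFit and eBayes of limma 3.58.1 in R 4.3.3 were fitted to 45037, old against young, with Benjamini-Hochberg adjustment over all. Of these, 34945 name a single gene. A gene stands by its probe set of highest mean log2 value, and all probe sets of the integrin chains are given. Replicates are separate pools of animals, and the number of arrays limits the precision.

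The members and gene lists were chosen with earlier results of these data known. All members are named, with up to 4 genes of each pathway list by size of change among those that passed, the 5 genes nearest to Itgb2, Itgax and Itgb3, and the 2 most changed genes of marker lists that moved with the members. Itga2b, Rlbp1, Ptk2b, Vav1, Skap1, Tln1, Cd3e and 4 ligands were added after their values were seen. Promoter windows and their motif were chosen after the fold changes were seen. The limma fit was tested on simulated data and the permutation test on small fixed examples with known answers. The alternatives were a low-value filter, quantile normalization, median centring, a pseudocount, the mean of a gene's probe sets, array weights, limma's trend and robust options, a block for the replicate number and leaving out arrays singly or old replicates 2 and 4 jointly. The labels do not pair samples of the same number.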

Additional observations from a re-analysis of the deposited data

Results flagged for a closer look

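Of the 42 groups of 4 arrays (21 probe sets at each age), 1 held an array far from the other 3, where chance gives about 1 in 20 groups. In the probe set 1449216_at of Itgae, young replicate 1 read 73.0 and the other young arrays 88.6 to 90.0. Without it the log2 change of this probe set was -0.031.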

How the results depend on the processing

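Member probe sets over 2-fold higher at an adjusted p under 0.01 numbered 5 in every fit to single probe sets, except that 4 passed without old replicates 2 and 4. With the mean of all probe sets of a gene, an alternative chosen for the member genes after seeing the data, 3 genes passed this rule, against 5 by the brightest probe set, and 6 genes were higher by both. The higher probe sets numbered 7 to 10 with single arrays left out and the lower ones 0 to 1, and the low-value filter (a mean log2 value of at least 6) left 0 lower, as did leaving out old replicates 2 and 4. The 3 bright Itgb1 probe sets passed with trend and robust estimation (adjusted p = 0.0225 to 0.0413) and with array weights, where 11 probe sets were higher. With the filter, which adjusts over fewer probe sets, 2 of the 3 passed. Of 330 results for single probe sets under the alternatives, 298 kept their direction and side of the threshold, 14 lost and 13 gained the call and 5 reversed. The reversals were near 0. With single arrays left out, the log2 change of 1449216_at of Itgae ran between -0.031 and 0.070, and that of 1426919_at of Itgb1 between -0.044 and 0.14, where it was also -0.018 with both old replicates 2 and 4 left out.

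Of the pathway genes, 30 were higher and 7 lower, and 26 to 30 and 1 to 9 with single arrays left out. Without old replicates 2 and 4, in a fit with fewer arrays, 19 were higher and 1 lower. The lower genes numbered 12 with quantile normalization and with array weights, and 11 with trend and robust estimation. With a pseudocount of 16, Itgam less Itgb2 was -0.13. With the mean of all probe sets, 6 pairs of chains reached the smallest p, which made their adjusted p 0.0429, and 6 pairs passed. With single arrays left out, or within numbered pairs, the permutation test cannot fall under 0.05.

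With the replicate number as a block, 8 member probe sets were higher, 1 lower and 5 over 2-fold, and the paired and unpaired fits made the same calls for the 21 probe sets. Deviations of arrays with the same number had correlations of 0.0971, 0.0190, 0.0219 and 0.0427. The cause of these differences was not tested. Probe sets under 64 limit what can be said of the dim probe sets of Itga4 and Itgb1.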
